A study of Oryctolagus cuniculus with 12 samples.

Results

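The genes described here are those of Wnt signalling that the array names, with RSPO1 at their head: the Wnt ligands, the R-spondins, their receptors, the secreted inhibitors, the intracellular regulators and the nuclear factors. They were chosen by gene symbol alone (families beginning WNT, FZD, RSPO, SFRP, DKK, AXIN, DVL, TCF7, GSK3, CSNK1 and NKD, and the genes LRP5, LRP6, LGR4 to LGR6, APC, CTNNB1, LEF1, PORCN, WIF1, ROR1, ROR2, ZNRF3 and RNF43). Of 10219 genes named on the array, 41 had such a symbol, and 65 probes carried them, with 1 probe for 30 genes and several for 11. Testing needed a probe that all 3 arrays of some group measured well above background, which held for 31 of the 41 (7362 of all 10219 named genes). A further probe that carried the names of both CSNK1A1 and CSNK2A1 was left out.

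The tissue was the basilar artery of the rabbit, a vessel on the surface of the brain stem, and its RNA was read on 12 single-colour Agilent arrays in 4 groups of 3. Normal arteries served as controls (day 0), and the other groups came from animals 3, 5 and 7 days past an induced subarachnoid hemorrhage, that is, bleeding around the brain. The comparisons ask which of these genes differ from the controls on each day, and between the days. How the bleed was made, the strain, age and sex of the animals, and whether arteries were pooled are not given in the sources used here. Nothing states that the arrays within a group came from separate animals, so p-values measure only the spread between these samples, and that spread may be technical.

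Wnt proteins bind a Frizzled receptor with the co-receptor LRP5 or LRP6, which stops a complex of APC, Axin, GSK3 and casein kinase 1 from marking beta-catenin for destruction, and beta-catenin then joins TCF and LEF factors on target genes. R-spondins do not start this signal by themselves. They bind LGR4, LGR5 or LGR6 and take the ubiquitin ligases ZNRF3 and RNF43 off the cell surface, so that more Frizzled stays there and a cell answers Wnt more strongly. In the vessels of the brain, Wnt signals are known for building and keeping the endothelial barrier, and the leptomeninges around those vessels are a known source of R-spondins and of secreted Wnt inhibitors.

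All values below are log2 signals relative to each array's 75th percentile, so that 0 is the level of a bright spot. Values near -4 lie at the edge of detection on all arrays but control replicate 2. Levels of different probes are not compared with each other. The 75th percentile itself lay between 127 and 191 units, no spot was saturated, and 3 arrays per group limit the precision. Control replicate 2 stood apart, with 169 spots flagged as outliers where the others had 1 to 16, and with 50.1% of its spots well above background where the others had 58.2% to 64.0%. Its lowest signal well above background was -2.66, against -4.24 to -3.72 on the other arrays. Markers of smooth muscle were high throughout: 10 of 11 were tested, and their summed level was 9.33 to 10.16 over the 12 arrays.

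The probes behind the results that follow are shown because several of these genes rest on a single probe of 60 bases and their names come from accessions rather than from the array's own words. The array describes the RSPO1 probe as a thrombospondin type 1 domain gene and the RSPO2 probe as similar to R-spondin 3, and both carry their names here through the gene record. The SFRP4 probes do not share a stretch, whereas the DKK2 probes are shifted by 1 base each and share the 56 bases in capitals, so that they are not separate measurements.
RSPO1: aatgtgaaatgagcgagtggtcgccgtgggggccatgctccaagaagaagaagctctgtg
RSPO2: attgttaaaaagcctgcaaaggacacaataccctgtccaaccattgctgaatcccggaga
RSPO3: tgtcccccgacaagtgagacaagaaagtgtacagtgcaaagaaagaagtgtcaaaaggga
NKD1: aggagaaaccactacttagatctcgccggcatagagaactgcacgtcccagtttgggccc
SFRP4, brighter probe: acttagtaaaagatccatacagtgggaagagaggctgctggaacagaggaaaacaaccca
SFRP4, other probe: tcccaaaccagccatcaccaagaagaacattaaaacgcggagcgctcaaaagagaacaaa
DKK2, first of 5: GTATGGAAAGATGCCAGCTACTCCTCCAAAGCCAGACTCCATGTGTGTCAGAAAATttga
DKK2, last of 5: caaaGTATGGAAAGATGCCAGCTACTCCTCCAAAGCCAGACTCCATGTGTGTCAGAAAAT

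RSPO1 was lower on each day after the hemorrhage, and it was the only one of the 31 tested genes called on every day. NKD1, an intracellular antagonist, was lower on day 3, and SFRP4, a secreted antagonist, was higher on day 3. With all 12 arrays and no block, no Wnt ligand, receptor or nuclear factor was called on any day. At a limma adjusted p below 0.05 (two-sided, adjusted over all tested probes), 3 of 31 genes were called on day 3, which is 9.68% against 6.93% of all genes tested (1 higher, against 4.86% of all genes, and 2 lower, against 2.06%). On day 5 the count was 1 of 31, or 3.23% against 2.12%, and on day 7 it was again 1, or 3.23% against 2.55%. None of the 31 was called higher on these days by limma, where 1.9% and 1.97% of all genes were, while at an unadjusted p below 0.05 in either direction there were 5 and 3, against 14.8% and 19.4% of all genes. On day 3 that count was 9, against 21.9% of all genes. The shares called by limma in either direction lay near the background. The share called lower on day 3, 6.45% against 2.06%, rests on 2 genes. On day 7 the 3 of 31 at an unadjusted p below 0.05 were a smaller share than among all genes.

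**Figure D1:**
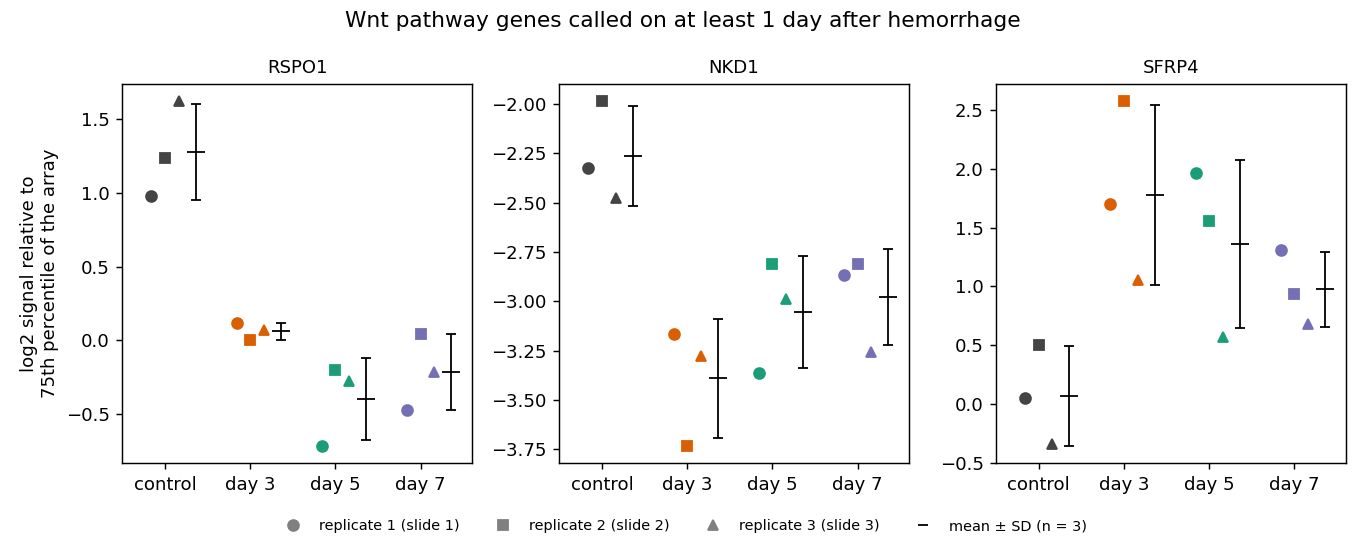
Log2 signal relative to each array's 75th percentile (vertical axis) for RSPO1, NKD1 and SFRP4 in the 4 groups (horizontal axis), 1 point per array with the marker shape giving the replicate and slide, and the mean ± SD of 3 arrays beside them; the vertical scales differ. The 3 controls of RSPO1 lie above all 9 arrays taken after the hemorrhage, those of NKD1 do so too, and those of SFRP4 lie below all 9.

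RSPO1 had values of 0.98, 1.23 and 1.62 in the controls, a mean of 1.28 ± 0.33 (SD, n = 3). On day 3 it read 0.12, 0.00 and 0.07 (0.06 ± 0.06), on day 5 -0.71, -0.20 and -0.27 (-0.39 ± 0.28), and on day 7 -0.47, 0.05 and -0.21 (-0.21 ± 0.26, SD, n = 3 each). Every array taken after the hemorrhage was below every control. RSPO1 fell by 1.21 on day 3 (SE 0.21, limma adjusted p = 0.00599), a level 2.32-fold lower. The fall was 3.19-fold on day 5 (log2 change -1.67, adjusted p = 0.00206) and 2.81-fold on day 7 (-1.49, adjusted p = 0.00443). Within the 3 slides, each of which held 1 array of every group, the changes were -0.86, -1.23 and -1.55 on day 3, -1.69, -1.43 and -1.89 on day 5, and -1.45, -1.19 and -1.84 on day 7. On every slide the control was at position 1 and days 3, 5 and 7 at positions 2, 3 and 4. Position on the slide and day therefore cannot be told apart, for any gene here. The F test over the 3 days called RSPO1 (adjusted p = 0.00337) and no other gene of the 31, or 3.23% against 3.26% of all genes. Falls were few among all genes on the later days, with 0.217% called lower on day 5 and 0.584% on day 7. In a piece of artery, fewer cells of a type and less RNA per cell cannot be told apart, for RSPO1 or any gene below.

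The level of RSPO1 did not differ between the days by the test. Its day 5 arrays were all below its day 3 arrays, as those of 7.43% of all genes were, with a difference of -0.46 (95% interval -0.91 to -0.01, limma adjusted p = 0.706). The difference of day 7 from day 5 was 0.18, with an interval of -0.27 to 0.63. Of the 31 genes, 0 were called by limma between any 2 days. Among all genes, 0.0% were called between days 3 and 5, 0.109% between days 3 and 7 and 0.0% between days 5 and 7. At an unadjusted p below 0.05 there were 2 of 31 between days 3 and 5 (7.55% of all genes), 0 between days 3 and 7 (11.9%) and 0 between days 5 and 7 (1.74%).

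The other R-spondins, which act on the same receptors, were not called. RSPO3 read 1.78, 1.67 and 1.64 in the controls, 0.78, 1.31 and 0.70 on day 3, 1.35, 1.17 and 0.18 on day 5, and 1.55, 0.52 and 1.18 on day 7. Every later array was below the controls, but the later arrays spread widely. Its changes were -0.77 on day 3 (SE 0.32, adjusted p = 0.194), -0.80 on day 5 (adjusted p = 0.280) and -0.62 on day 7 (adjusted p = 0.351). RSPO2 was dim, with 1, 2, 3 and 3 arrays well above background in the controls and on days 3, 5 and 7. Its controls read -4.56, -4.95 and -2.42, and the later arrays lay between -3.70 and -2.15, so that the third control alone overlapped them. The changes were 0.78, 1.37 and 1.57 (SE 0.57), with adjusted p = 0.486, 0.296 and 0.185. Without control replicate 3, RSPO2 was called on all 3 days (1.56, 2.15 and 2.35, limma adjusted p = 0.0450, 0.0230 and 0.0126). Neither remaining control was well above background, so these are fitted values and no measured changes. Control replicate 3 decides whether RSPO2 is called.

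**Figure D2:**
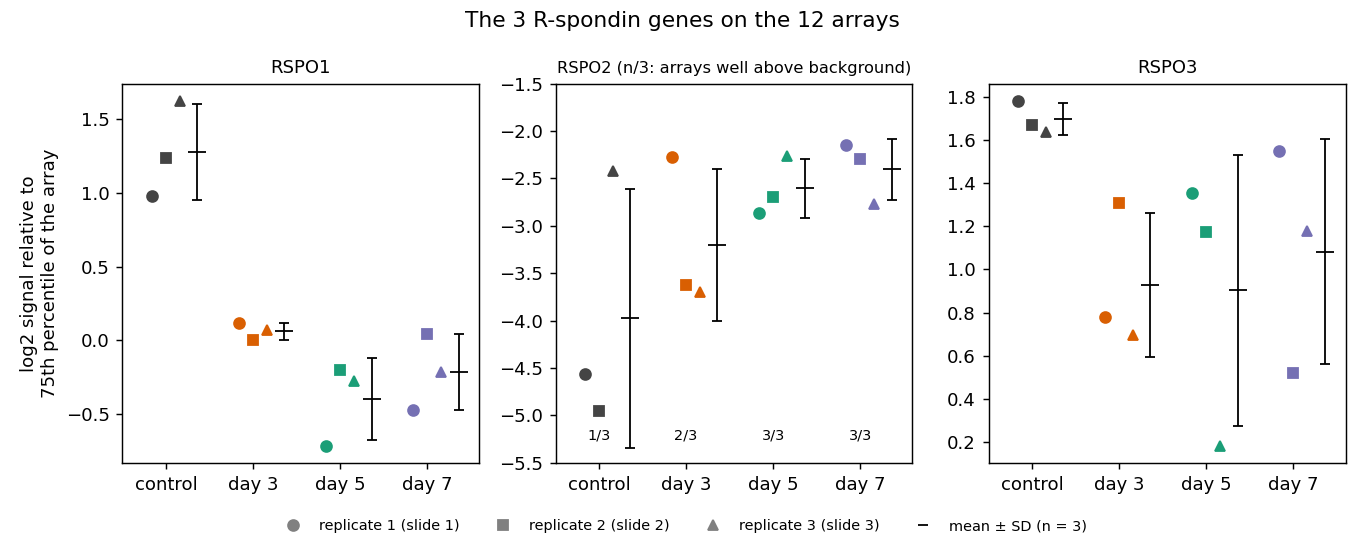
Log2 signal relative to each array's 75th percentile (vertical axis) for the 3 R-spondin genes in the 4 groups, 1 point per array with the mean ± SD of 3 arrays; for RSPO2 the number of arrays well above background is written below each group, and the vertical scales differ. RSPO1 and RSPO3 controls lie above every later array, whereas for RSPO2 the third control, at -2.42, lies among the later arrays.

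Of the 13 Wnt ligand genes on the array, 5 were tested, 2 were well above background on all 12 arrays (WNT5B and WNT11), and 4 were above background on none (WNT3A, WNT5A, WNT7A and WNT8B). WNT3, WNT10A, WNT10B and WNT16 were measured on too few arrays to be tested. WNT7A, a ligand known for its role in brain vessels, read between -6.45 and -4.83 on the 12 arrays. The smallest F test p among the tested ligands belonged to WNT11 and WNT8A, and neither was called. WNT11, a ligand known mainly for signalling without beta-catenin, had control values of -0.90, -0.53 and -0.63 and day 3 values of -0.93, -2.16 and -2.14. The first day 3 array lay just below the controls and the other 2 well below them, and the change was -1.06 (SE 0.36, adjusted p = 0.116). Without day 3 replicate 1 WNT11 was called, at -1.46 (adjusted p = 0.0287). On day 5 it read -1.08, -1.66 and -0.58 and on day 7 -1.04, -0.54 and -1.44, overlapping the controls. WNT8A was well above background in 3 controls, no day 3 array, 3 day 5 arrays and 2 day 7 arrays. Its control values were -3.61, -0.94 and -3.27, and the high value came from control replicate 2, the array that stood apart. Its day 3 level was at least 2.36-fold lower (adjusted p = 0.122), where the fold sets the mean of the controls against the lowest signal well above background on the day 3 arrays. Without control replicate 2 the bound was at least 1.32-fold. WNT5B, also a ligand of the branch without beta-catenin, changed by -0.36, -0.12 and -0.28, and WNT2B by -0.01, 0.09 and 0.24 on the 3 days, with no call. The probe that gave the value of WNT2 was well above background on no control and on 1, 3 and 1 arrays of days 3, 5 and 7. It lay near enough to background that no fold is given, and it was not called. The other tested WNT2 probe, also well above background on no control, was not called on any day (limma adjusted p = 0.21 on day 3). Of the WNT2 probes that were not tested, 1 was well above background on 2 controls.

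Of 8 receptor and co-receptor genes, 7 were tested and none was called. On day 3 their changes lay between -0.59 and 0.15, on day 5 between -0.39 and 0.21, and on day 7 between -0.36 and 0.21. FZD2, a Wnt receptor, read 4.96, 4.66 and 4.76 in the controls and 4.43, 4.10 and 4.09 on day 3, without overlap. Its change was -0.58 (SE 0.20, adjusted p = 0.108), then -0.32 on day 5 (adjusted p = 0.519) and -0.36 on day 7 (adjusted p = 0.371). ROR2, a receptor of WNT5A, read -2.65, -2.21 and -3.38 in the controls and -3.08, -3.51 and -3.42 on day 3. These groups overlapped, with a change of -0.59 (SE 0.27, adjusted p = 0.233). Without control replicate 3, the lowest of the controls, ROR2 was called on day 3, at -0.91 (adjusted p = 0.0389). The receptors of R-spondins showed no call: LGR4 changed by -0.40, -0.03 and 0.02 on the 3 days and LGR6 by -0.16, -0.17 and -0.09. LGR5 was well above background on 1 array of each group and was not tested; its control replicate 2 read -0.80, against -4.87 and -4.18 in the other controls. The co-receptor LRP6 changed by -0.35, -0.20 and -0.24, and FZD4, the receptor for Norrin in brain vessels, by -0.17, 0.09 and 0.19.

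Among the secreted inhibitors, SFRP4, which binds Wnt proteins outside the cell, rose on day 3. Its controls read 0.05, 0.51 and -0.34 (0.07 ± 0.42), and day 3 read 1.70, 2.58 and 1.06 (1.78 ± 0.76, SD, n = 3 each). On day 5 the values were 1.96, 1.56 and 0.57, and on day 7 1.31, 0.93 and 0.68. All 9 later arrays were above the 3 controls, with the narrowest gap on day 5. The rise on day 3 was 3.27-fold (log2 change 1.71, SE 0.42, limma adjusted p = 0.0342; 1.65, 2.07 and 1.40 within the slides). The second SFRP4 probe gave 1.79 (adjusted p = 0.0132). On day 5 the change was 1.29 (adjusted p = 0.161, and 0.0473 with the slide as a block) and on day 7 0.91 (adjusted p = 0.287), neither called. The day 3 call rested on single arrays: it ended on leaving out the first control (adjusted p = 0.0899), the third control (0.0813), the first or second day 3 array (0.0710 and 0.109) or the second day 7 array (0.0516), and also with all dim probes tested (0.0757).

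DKK2, which binds LRP6 and blocks or weakly activates it depending on the setting, was called on day 3 only in the blocked fit, where slide was a term (adjusted p = 0.0348). It read 3.14, 3.77 and 3.14 in the controls and 2.67, 2.77 and 1.85 on day 3, all 3 below the controls. Day 5, at 3.53, 3.42 and 2.73, and day 7, at 3.36, 2.89 and 2.74, overlapped them. Without the block the day 3 change was -0.92 (SE 0.30, adjusted p = 0.102), and over its 5 overlapping probes it ranged from -0.96 to -0.81 (adjusted p 0.0974 to 0.155). DKK1, the inhibitor of LRP6 best known as a Wnt target, was near background: 1 control, 3 day 3, 3 day 5 and no day 7 array measured it. Its changes were 0.68 on day 3 (adjusted p = 0.568) and 0.16 on day 5. On day 7 the bound lay 1.06-fold below the control mean (limma adjusted p = 0.815). The controls read -5.65, -3.75 and -2.37 and only 1 of them was well above background, so this bound gives no direction. None of these changes was called. SFRP2, a relative of SFRP4, scattered within the groups. Its controls read 0.43, 1.02 and 1.35 and day 3 read 2.01, -0.10 and -1.11, with a change of -0.67 (SE 0.62, adjusted p = 0.596) and, over its 6 probes, -0.67 to 0.07.

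Among the 10 intracellular and membrane regulators, NKD1, which binds Dishevelled and dampens the Wnt signal and is itself switched on by it in many tissues, fell on day 3. The controls read -2.32, -1.98 and -2.48 (-2.26 ± 0.25) and day 3 read -3.17, -3.73 and -3.28 (-3.39 ± 0.30, SD, n = 3 each). Day 5 read -3.36, -2.81 and -2.99 and day 7 -2.86, -2.81 and -3.26. Every later array was below every control. NKD1 was 2.19-fold lower on day 3 (log2 change -1.13, SE 0.22, limma adjusted p = 0.0117; -0.84, -1.75 and -0.80 within the slides). The changes of -0.79 on day 5 (adjusted p = 0.103) and -0.72 on day 7 (adjusted p = 0.113) were not called. The probe was well above background on all 12 arrays but dim. After normexp background correction the day 3 change was -0.37 (adjusted p = 0.284) and that of day 5 was 0.09 (adjusted p = 0.764).

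The other 9 regulators were not called on any day, with changes from -0.27 to 0.36 (day 3), -0.27 to 0.21 (day 5) and -0.28 to 0.27 (day 7). They include the ligases that R-spondins remove. RNF43 changed by -0.27, -0.13 and -0.18 (adjusted p = 0.310 on day 3, when its 3 arrays lay below the controls) and ZNRF3 by -0.06, -0.11 and -0.28. ZNRF3 lay near background, with 2, 2, 3 and 2 arrays well above it in the controls and on days 3, 5 and 7. Of the destruction complex, GSK3B changed by -0.09, -0.07 and 0.06, APC by -0.16, -0.06 and -0.25, and CSNK1A1, the casein kinase that primes beta-catenin, by 0.03, 0.02 and 0.15. For GSK3B the 95% interval on day 3 was -0.42 to 0.24. PORCN, the enzyme that attaches the lipid Wnt proteins need, changed by -0.09, -0.27 and 0.04.

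Of 3 nuclear factors, CTNNB1 and LEF1 were tested and not called, and TCF7 was above background on 2 controls only. CTNNB1, beta-catenin, read 0.97, 0.86 and 0.95 in the controls, 0.87, 0.72 and 0.47 on day 3, 1.25, 1.06 and 0.52 on day 5, and 0.98 to 1.15 on day 7. The day 7 arrays lay just above the controls and the groups of days 3 and 5 overlapped them. Its changes were -0.24 (SE 0.19, adjusted p = 0.525), 0.02 and 0.12. These values are from a probe named only through a transcript that it shares with a named probe. On the other CTNNB1 probe, named directly, day 7 (0.54 to 0.82) overlapped the controls (0.50 to 0.65), and the changes were -0.14, 0.04 and 0.08. LEF1 read 0.20, 0.32 and -0.33 in the controls and 0.05, -0.02 and -0.43 on day 3, overlapping, and changed by -0.20 (SE 0.30, adjusted p = 0.760), 0.21 and -0.10. Of its probes, this one had the smallest day 3 change. Over all of them the change ranged from -0.64 to -0.20 (limma adjusted p 0.252 to 0.760). The probe at -0.58 lay below the controls on day 3 without overlap. An array measures RNA, and the amount or place of beta-catenin protein was not measured.

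**Figure D3:**
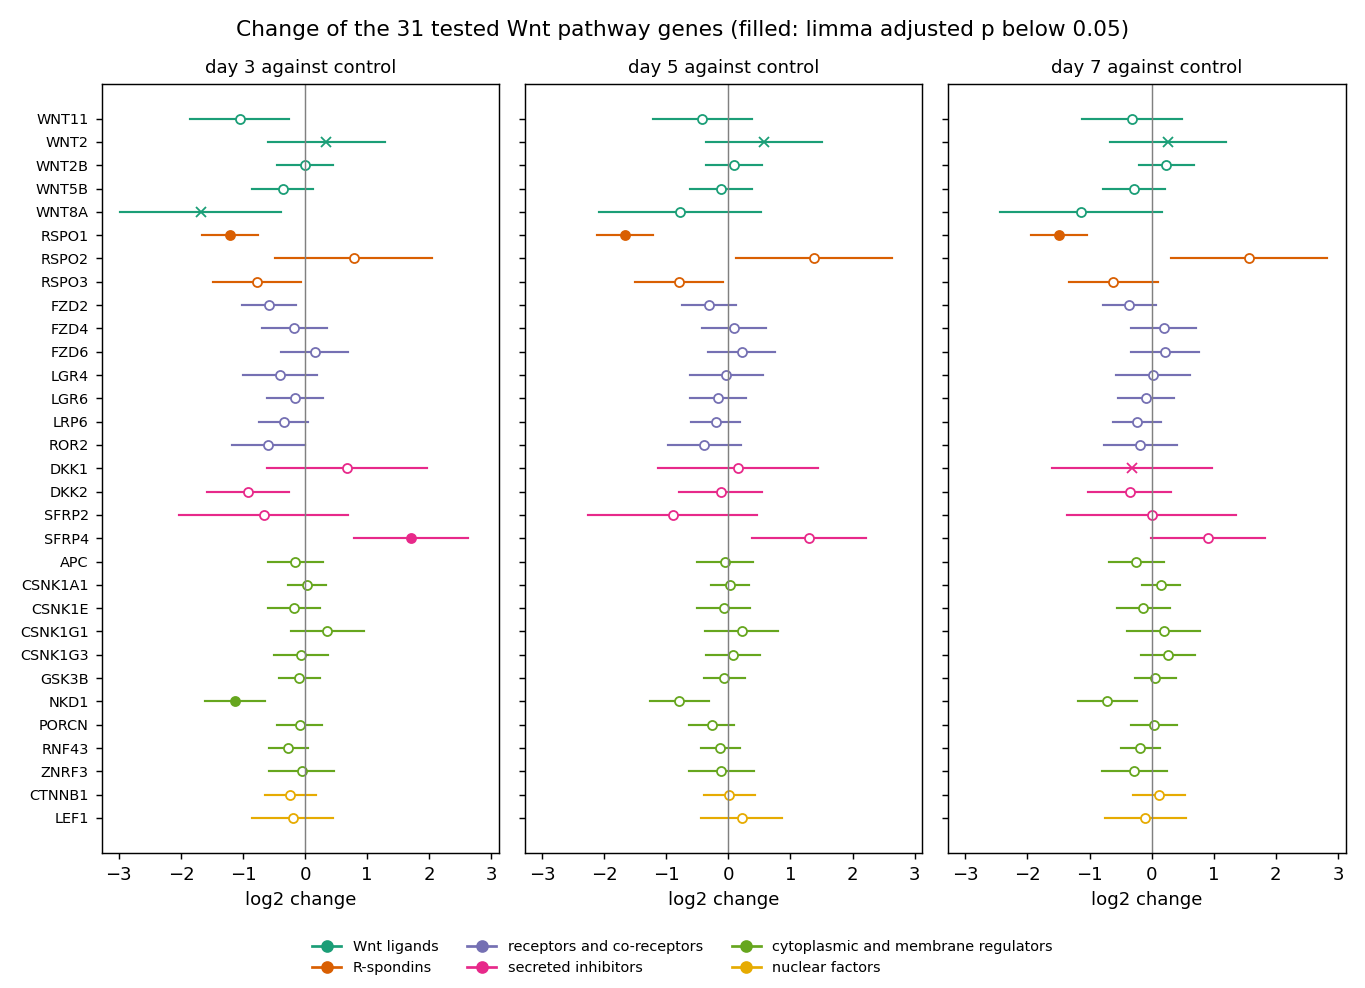
Log2 change against the controls (horizontal axis) with its 95% interval for the 31 tested genes (vertical axis), ordered and coloured by role, on days 3, 5 and 7; filled points had a limma adjusted p below 0.05, and crosses mark fitted values that are no measured change because no array of 1 of the 2 groups was well above background (WNT8A, WNT2 and DKK1). RSPO1 is filled in all 3 panels, at -1.21, -1.67 and -1.49, and NKD1 at -1.13 and SFRP4 at 1.71 are filled on day 3 only.

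Over all 31 genes, the median change was -0.18 on day 3, with 24 below 0 and 7 above, against -0.01 for all 7362 genes tested. On day 5 the median was -0.08 (19 below and 12 above 0; 0.02 for all genes) and on day 7 -0.10 (17 below and 14 above; 0.03 for all genes). With WNT8A, WNT2 and DKK1 at their bounds, or at 0 where a bound gives no fold, these medians were -0.18, -0.08 and -0.09. Changes of less than 0.5 in size were found for 19, 23 and 25 of the 31 on the 3 days. Genes whose 3 arrays all lay below the 3 controls numbered 8 on day 3 (25.8% against 11.5% of all genes), namely RSPO1, RSPO3, NKD1, DKK2, FZD2, RNF43, WNT11 and WNT8A. That share was 12.9% against 6.83% on day 5 and 9.68% against 11.0% on day 7. Genes whose arrays all lay above the controls made up 6.45% on day 3 (SFRP4 and CSNK1G1, a casein kinase; 13.8% of all genes), 3.23% on day 5 (10.2%) and 6.45% on day 7 (12.3%). All 3 days share the same 3 controls, so these counts are not separate observations.

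Outside these gene families, lists of other Wnt genes were set beside all genes tested. Of all genes, 6.93%, 2.12% and 2.55% were called on days 3, 5 and 7, with median changes of -0.01, 0.02 and 0.03. Of 15 tested genes for Wnt secretion, cofactors and planar polarity (30 listed), 0 were called on any day, and the median changes were 0.01, 0.10 and -0.03. The smallest day 3 p values belonged to GPC3, a cell surface proteoglycan (-0.55, adjusted p = 0.102), and PTK7, a co-receptor of planar polarity, which no day 3 array and 1 control measured well above background (adjusted p = 0.178). Of 23 tested genes of the destruction complex, its turnover and the nuclear cofactors (44 listed), 0 were called, with medians of -0.15, -0.01 and -0.03. TLE1, a co-repressor that binds TCF factors, had -0.44 (adjusted p = 0.104) and PPP2CA, a phosphatase subunit, 0.29 (adjusted p = 0.329) on day 3. Of 5 tested further antagonists (14 listed), 1 rose on day 3, with a list median of 0.35, 0.14 and 0.10 on the 3 days. This was IGFBP4, which binds insulin-like growth factors and also blocks LRP6. It went from -0.55 ± 0.21 to 1.07 ± 0.36 (SD, n = 3 each), a change of 1.62 (SE 0.22, adjusted p = 0.00172), and was 0.67 (adjusted p = 0.176) and 0.65 (adjusted p = 0.163) above the controls on days 5 and 7. Of 16 tested genes of the calcium and small GTPase branch (27 listed), 1 rose on day 3 and 0 were called later, with medians of -0.11, -0.05 and -0.12. The gene was RHOA, a GTPase of the cytoskeleton, at 0.53 (SE 0.14, adjusted p = 0.0423), a call that ended in 15 of 20 alternative settings (adjusted p 0.0294 to 0.159 over all 20).

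Genes known as targets of beta-catenin moved in both directions. Of all genes tested, 4.86% were called higher and 2.06% lower on day 3. These shares were 1.9% and 0.217% on day 5, and 1.97% and 0.584% on day 7. Of 25 tested (43 listed), 1 rose and 3 fell on day 3, and 1 rose and 1 fell on each of days 5 and 7, with medians of -0.24, -0.04 and -0.18 (-0.02 on day 7 with PPARD, which no day 7 array measured, at its bound). CD44, a receptor for hyaluronan, rose by 1.23, 1.27 and 1.22 on the 3 days (adjusted p = 0.00711, 0.0112 and 0.0143). Its call ended on day 5 without day 5 replicate 1 (adjusted p = 0.0530), and on day 7 without day 7 replicate 1 (0.0699) or day 7 replicate 2 (0.0561). BMP4, a growth factor, fell on day 3 from 1.49 ± 0.29 to 0.26 ± 0.27 (SD, n = 3 each; adjusted p = 0.00335). CCND1, cyclin D1, and MSX2, a homeobox factor, also fell on day 3, by 0.81 (adjusted p = 0.0369) and 0.67 (adjusted p = 0.0319). These 2 calls ended in 8 and 7 of 20 alternative settings, with adjusted p up to 0.130 and 0.514. MMP9, a gelatinase that neutrophils and macrophages also make, fell by 1.71 on day 5 (adjusted p = 0.0249) and by 2.41 on day 7 (adjusted p = 0.00441). Its day 5 call ended without control replicate 2 or 3, without any 1 of the 3 day 5 arrays, and with all dim probes tested (adjusted p 0.0572 to 0.0870). Many other pathways act on these genes, and the list shares no probe with the 41 genes. Of 7 tested barrier genes of brain endothelium (14 listed), TFRC, the transferrin receptor, was called lower on day 3 (-1.03, adjusted p = 0.0446) and day 7 (-1.19, adjusted p = 0.0444), and 0 were called on day 5. The list medians were -0.47, -0.25 and -0.04, and the TFRC calls ended in 15 and 12 of 20 alternative settings (adjusted p up to 0.331 and 0.417).

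Markers of other cell types moved over the same days as RSPO1. For them too, the shares of all genes called higher and lower were 4.86% and 2.06% on day 3. On day 5 they were 1.9% and 0.217%, and on day 7 1.97% and 0.584%. Of 10 tested fibroblast and leptomeningeal genes (14 listed), 3 rose and 3 fell on day 3, 1 rose on day 5 and 3 rose on day 7. The falls on day 3 were those of PTGDS, prostaglandin D synthase (-1.59, adjusted p = 0.00290), and of the organic anion transporters SLC22A6 (-2.56, adjusted p = 0.00514) and SLC22A8 (-3.24, adjusted p = 0.0149; 0.0504 without day 3 replicate 2), genes of the leptomeninges. On day 5 these 3 changed by -0.86, -0.78 and -1.98, and on day 7, when RSPO1 was at -1.49, by -0.51, -0.18 and -0.57. They were not called on either day. SLC6A13 and ALDH1A2 of the same list lay above 0 on all 3 days (0.41 and 0.31 on day 3, 0.80 and 0.88 on day 7), with no call. Of the 10 genes, 6 lay above 0 and 4 below on day 3, and 7 above and 3 below on day 7. COL1A1, a collagen of fibroblasts, rose by 1.56, 1.62 and 1.57 (adjusted p = 0.00254, 0.00453 and 0.00578). LUM, a proteoglycan, and COL3A1, another collagen, rose on day 3 (1.13 and 0.93) and day 7 (1.02 and 1.04), calls that ended in 3 to 14 of 20 alternative settings. The summed level of the 10 genes ranged over 10.452 to 11.283 in the controls. Its later ranges were 10.002 to 10.089 (day 3), 10.414 to 10.431 (day 5) and 10.586 to 10.928 (day 7). The sum is led by its brightest genes. The mean log2 level of the same 10 genes, which weights them equally, had a range from 4.225 to 4.833 in the controls. After the hemorrhage its ranges were 4.088 to 4.320 (day 3), 4.502 to 4.743 (day 5) and 4.875 to 5.176 (day 7), the last above the controls.

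The summed level of the 10 tested smooth muscle genes ranged over 9.90 to 10.16 in the controls. Later it ranged over 9.39 to 9.66 (day 3), 9.33 to 9.68 (day 5) and 9.44 to 9.79 (day 7), below the controls throughout. Of these, 1 fell on day 3, MYL9, a myosin light chain (-0.64, adjusted p = 0.0451), a call that ended in 13 of 20 alternative settings. The 4 tested macrophage genes (12 listed) summed to 2.53 to 3.15 in the controls and to 4.04 to 4.90 on the 9 later arrays, and 3 of them rose on every day. Of 10 endothelial genes, 7 were tested, 1 was called lower on day 3, and 5, 6 and 6 of the 7 lay below 0 on the 3 days, with medians of -0.59, -0.50 and -0.78. The called gene was KDR (fitted change -2.62, limma adjusted p = 0.0162), which 2 controls and no day 3 array measured well above background. PECAM1 and VWF lay above 0 on day 3 (0.33 and 0.41). The sums of the 7 genes, led by the brightest gene, overlapped between all groups (5.55 to 6.40). Their mean log2 level, which takes in the unmeasured day 3 values of KDR, was 1.013 to 1.743 in the controls. It was below that on day 3 (0.406 to 0.834) and day 7 (0.435 to 0.966), and overlapped the controls on day 5 (0.764 to 1.110). Of 8 cell division genes 7 were tested, and 7, 5 and 5 were called higher on the 3 days. BUB1B, RRM2 and NCAPG were well above background on no control and entered the test through the later groups, so their fitted changes are no measured changes. The list medians were 3.56, 1.99 and 2.20 as fitted, and 1.88, 1.15 and 0.98 with these genes at their bounds. Of 12 nerve and glial genes, 6 were named on the array and 2 were tested, with no call on any day. Their summed level was 0.13 to 0.17 in the controls. Later it ranged over -0.49 to -0.23 (day 3), -0.82 to 0.06 (day 5) and -0.55 to -0.26 (day 7), below the controls throughout. The part of these cell types in the values of RSPO1, NKD1 and SFRP4 was not tested.

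**Figure D4:**
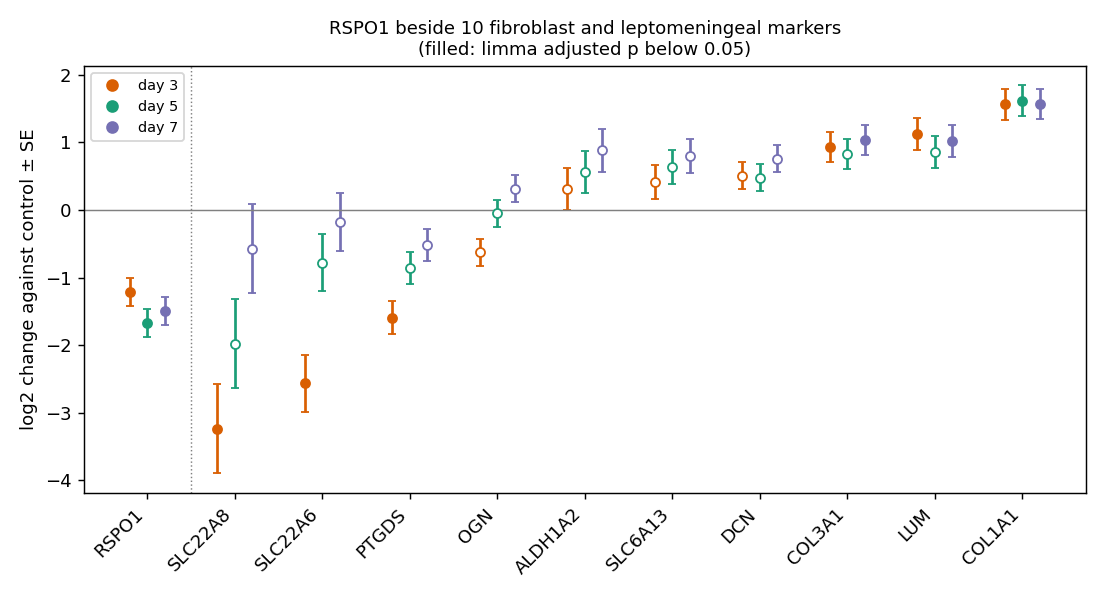
Log2 change against the controls ± SE (vertical axis) on days 3, 5 and 7 for RSPO1, left of the dotted line, and for the 10 tested fibroblast and leptomeningeal markers, ordered by their day 3 change; filled points had a limma adjusted p below 0.05. RSPO1 is filled on all 3 days, SLC22A8, SLC22A6 and PTGDS are filled below 0 on day 3 only, and COL1A1 is filled above 0 on all 3 days.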

How the data were processed

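Total RNA of rabbit basilar artery in 12 samples was hybridised to single-colour (Cy3) arrays, and Agilent Feature Extraction 9.5.1.1 read the scans, per the submitters' processing notes. The processed signal is an intensity that the authors deposited without scaling between arrays; per the file headers its background was subtracted and spatial trends were removed. Mean and local background signals were deposited as raw intensity. The flags (kind other, 0 or 1) are given for every spot in the deposited scanner output. A value table deposited by the authors, used as an alternative only, holds a linear intensity; its columns all had a median of 27.0, and on the log2 scale they correlated with the processed signals at 0.994 or more. Its normalization is not given in the sources used here.

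Control spots and outlier spots were left out, each array's 75th percentile was subtracted from the log2 processed signals, and spots of a probe were averaged. Testing took in 26431 of 43623 probes, those that every array of some group measured well above background. Names came from accessions, gene identifiers and symbols on the array, with RefSeq's table for assembly mOryCun1.1 serving for names alone; 1 gene was found for 23074 probes, several for 280 and none for 20269. Probe sequences are those the scanner files give. Positions are not printed, since the array's genome build is not given in the sources used here. Where a gene had several tested probes, the one with the highest mean gave its value.

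All 12 arrays entered 1 fit with limma 3.58.1 under R 4.3.3 (files read by version 1.17.8 of data.table), with two-sided tests, no block, Benjamini-Hochberg adjustment over all tested probes and a threshold of 0.05. Where no array of a group was above background, the fold is a bound against the lowest signal well above background on each array. Summed marker levels are log2 of the sum of the tested genes' scaled signals. On simulated data the fit recovered 55%, 45% and 41% of 2-fold changes and 86%, 90% and 91% of 4-fold changes for days 3, 5 and 7, with 1, 5 and 4 wrong calls among 26325 probes. The simulated noise was independent between arrays, with no slide effect, no outlying array and no background limit, so rates in the real data may differ.

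Members and lists were chosen with earlier results of these data known. Values per array are given for RSPO1 and every called member, and for the 2 members with the smallest F test p in each role with none called. Of each list, up to 4 called genes are named, or the 2 with the smallest p. RSPO2, RSPO3, DKK2 and other members named beyond this were picked after their values were seen. The alternatives were normexp background correction, median scaling, quantile normalization, the authors' table, both filters on dim probes, the mean of all probes, the slide as a block, and leaving out each array.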

Additional observations from a re-analysis of the deposited data

How the results depend on the processing

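RSPO1 kept its direction and its call in all 20 alternatives on each day, with changes from -1.37 to -1.01 (day 3), -1.82 to -1.21 (day 5) and -1.64 to -1.18 (day 7). On day 3 the count of the 31 genes called was 2 to 4 over the 20, but not always of the same genes: the slide as a block added DKK2, leaving out control replicate 3 added ROR2 and RSPO2 and lost SFRP4, and leaving out day 3 replicate 1 added WNT11 and lost SFRP4. Between the days it was 0 in all 20. With the replicate block (slide), 2 genes were called on day 5 and 2 by the F test, RSPO1 and SFRP4 in both. Testing only probes well above background on all 12 arrays left 23 of the 31 genes and gave 2 by the F test, NKD1 and RSPO1. Leaving out 1 array at a time gave 1 to 2 genes on day 5, on day 7 and by the F test. The second gene was RSPO2, without control replicate 3, where no remaining control measured it well above background. After normexp background correction NKD1 reversed on day 5 (0.091) and lost its call on day 3 (-0.37); the cause was not tested. Among all genes, 510, 156 and 188 were called on days 3, 5 and 7, against 250, 79 and 71 with no filter on dim probes, 310, 71 and 82 after normexp, and 664, 185 and 283 with the slide as a block. Without control replicate 3 the day 7 count was 556. Replicate numbers were those of the slides. Deviations from the group means correlated at -0.15 to 0.39 for arrays of the same slide (mean 0.11, over 0.1 in 10 of 18 pairs). For arrays of different slides the range was -0.40 to 0.26 (mean -0.05, over 0.1 in 2 of 36 pairs). Arrays of a slide thus deviated together more than arrays of different slides, and the main fit has no term for this. Whether the slide or a pairing of the samples gave it was not tested. Beyond SFRP4 on day 5 and by the F test, and DKK2 on day 3, the block changed no call of the 31 genes. The block cannot separate day from position on the slide, since these went together on every slide. Other scalings moved the median of all genes by less than 0.1. NKD1, RSPO2, DKK1, WNT2, WNT8A and ZNRF3 lay near background, where the arrays resolve little.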

Other observations

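A pair of Wnt regulators that the choice by symbol did not take were looked at after their values were seen. FRZB, a secreted Wnt antagonist of the same family as SFRP4, read 1.39, 1.52 and 1.44 in the controls, 2.26, 2.11 and 1.66 on day 3, 3.00, 2.21 and 2.47 on day 5, and 2.23, 2.68 and 1.89 on day 7. Every later array lay above the 3 controls. FRZB rose by 1.11 on day 5 (SE 0.25, limma adjusted p = 0.0455; 1.61, 0.70 and 1.03 within the slides), and its changes of 0.56 on day 3 (adjusted p = 0.216) and 0.82 on day 7 (adjusted p = 0.112) were not called. The day 5 call ended in 14 of 20 alternative settings, which were added after seeing the data, with adjusted p of 0.0350 to 0.159 over all 20. DACT1, an intracellular partner of Dishevelled as NKD1 is, read -0.73, -0.59 and -0.64 in the controls and -1.003, -2.10 and -1.64 on day 3. All 3 of these arrays lay below the controls, with a change of -0.93 (SE 0.28, adjusted p = 0.0692) that was not called. On days 5 and 7 DACT1 changed by -0.42 (adjusted p = 0.548) and -0.57 (adjusted p = 0.306).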
